A study of Sus scrofa with 4 samples.

Results

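The genes of fatty acid oxidation and of peroxisome assembly were followed in fibroblasts grown from shallow and deep skin wounds of Duroc pigs. They were taken by gene symbol from the array's annotation: acyl-CoA synthetases (ACSL), thioesterases (ACOT), dehydrogenases (ACAD) and oxidases (ACOX), CPT1 and CPT2, electron transfer flavoproteins (ETFA, ETFB and ETFDH), ECH, ECI, HADH and ACAA genes, and numbered PEX genes. This gave 46 of 6765 named genes, measured by 63 of 23999 probesets, and each gene is represented by its brightest probeset.

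Wounds of both depths were made on the backs of 2 pigs and biopsied 20 weeks later, in a porcine model of cutaneous fibrosis. Fibroblasts of the dermal cones were cultured in DMEM/F12 medium with fetal bovine serum, and their RNA was taken at confluence for a porcine Affymetrix array. Each pig gave 1 shallow and 1 deep array, so the groups are shallow (n = 2) and deep (n = 2), with no unwounded skin among them. The 2 animals are the replicates, and cultured cells, not tissue, were measured. Signals are MAS5 intensity units, scaled by the authors to 1 common level per array. Differences are log2 signal, deep minus shallow, with the standard error (SE) of the limma fit, in which the pig is a block.

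Fatty acids are burned after they have been joined to coenzyme A by acyl-CoA synthetases and carried into mitochondria as carnitine esters by CPT1 and CPT2. There each round of beta-oxidation uses an acyl-CoA dehydrogenase, which passes electrons to the electron transfer flavoprotein, then an enoyl-CoA hydratase, a hydroxyacyl-CoA dehydrogenase and a thiolase. Peroxisomes shorten very long and branched chains with acyl-CoA oxidases in place of the dehydrogenases, and peroxins build the organelle and import its enzymes. Thioesterases cut acyl-CoA back to free fatty acid.

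The typical gene of the pathway differed little between deep and shallow cultures, and no member passed an adjusted p of 0.05. Over the 46 genes the median difference was 0.09, with 0.11 in pig 1 and 0.14 in pig 2, against -0.01 over all named genes. In 33 of the 46 the difference was under 0.5 in size, as it was in 4080 of the 6765 named genes. The median size was 0.30, against 0.39 over all named genes and 0.33 over probesets past the filter. The genes farthest from 0 were ACOT7, a thioesterase that read lower in deep, and CPT1B and ECHDC2, which read higher.

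The fit could test 43 of the 46 genes, those past a filter on dim probesets. With limma, 0 members were called, against 0.236% of all probesets called higher in deep and 0.104% called lower. At an unadjusted p under 0.05 there were 2 higher and 1 lower, together 6.98% of the 43. Of all probesets tested, 6.94% were higher and 6.92% lower at that p, together 13.9%. Both deep arrays lay above both shallow arrays for 15 of 46 members (32.6%, against 23.7% of all named genes). They lay below for 10 (21.7%, against 24.9%). Among probesets past the filter these shares were 23.2% and 25.5%. The pigs differed in sign for 13 members (28.3%, against 38.1% of named genes and 38.6% of probesets past the filter). Of the 43 tested members, 2 read at least 1.5-fold higher in deep in both pigs, CPT1B and ECHDC2, and 1 read lower, ACOT7, against 6.29% and 5.53% of probesets past the filter.

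**Figure D1:**
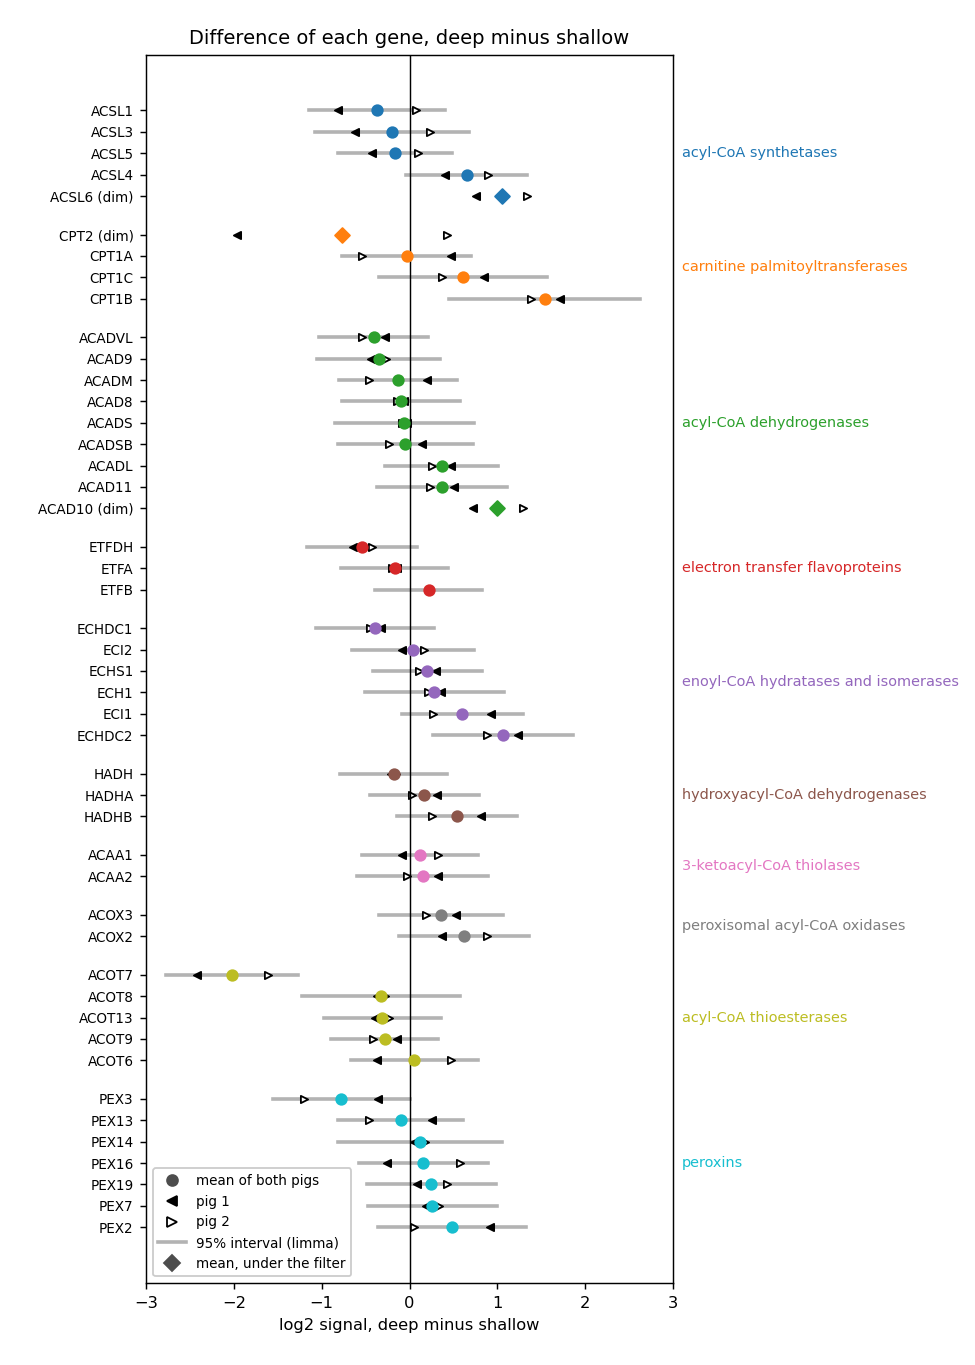
Log2 signal, deep minus shallow, for each of the 46 genes grouped by role. Circles are the mean of both pigs, triangles the value in each pig and grey bars the 95% limma interval; diamonds are the 3 genes under the filter, which have no interval. ACOT7 stands at -2.02, CPT1B at 1.54 and ECHDC2 at 1.06, and 33 genes lie within 0.5 of 0.

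The arrays differed in control measures in the same order as some members. For the actin control, the 3' over 5' ratio was 1.96 (pig 1) and 2.41 (pig 2) in shallow and 3.28 and 6.10 in deep. The hybridization controls averaged 2446 and 2817 against 3356 and 7652, and the 28S rRNA probeset read 1401 and 1984 against 4171 and 9146. On each of these the deep array of pig 2 was highest. Across the arrays in that order, 8 members read steadily higher (17.4%, against 11.8% of probesets past the filter): ACSL4, CPT1B, CPT1C, ECH1, ECHDC2, ECI1, HADHA and HADHB. Another 4 read steadily lower (8.7%, against 11.9%): ETFA, ETFDH, ECHDC1 and ACOT7. The part of labelling in these differences was not tested. A fit with the ratio as covariate, which has 1 residual degree of freedom and no pig block, is given beside several genes. Of the members without such a value beside them, it moved ECHDC1 from -0.39 to -0.01, HADHB from 0.54 to 0.18, HADHA from 0.17 to 0.06, ACADVL from -0.41 to -0.21 and PEX3 from -0.78 to -0.46. It turned the sign of ACAA2 (0.15 to -1.16), ETFB (0.22 to -0.27), PEX19 (0.25 to -0.27) and ACADM (-0.13 to 0.09). The cultures carried fibroblast genes, with 9 of 9 measured markers above the highest of 23 control probesets for absent transcripts on every array. The summed signal of 7 epithelial markers was 4274 on the shallow array of pig 1 and 162 to 298 on the other arrays. Of these markers, CDH1, KRT18, KRT19 and DSP lay below the absent controls on the other arrays. The sum of 6 proliferation genes was 8622 and 2682 in shallow against 1008 and 1188 in deep. Adipocyte markers, which could bring oxidation genes with them, summed to 663 to 909.8 over 9 genes with no order by depth. Most of that sum came from CFD, at 622 and 515 in shallow and 454 and 655 in deep. The sum therefore says little of the other markers, which had both signs. CEBPA read 26.6 and 48.2 in shallow and 66.4 and 111 in deep (1.26). LEP, CIDEA and ADIPOQ differed by 0.30, 0.87 and 0.30. FABP4, LPL, PPARG and LIPE differed by -1.73, -0.84, -2.74 and -0.89. Besides CFD, only CEBPA and LEP lay above the absent controls on every array. ADIPOQ read 11.4, 18.8, 9.08 and 35.7. In bulk cultures fewer cells of a type and less RNA per cell cannot be told apart.

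Thioesterases held the largest difference. ACOT7, a cytosolic enzyme that hydrolyses long-chain acyl-CoA, read 732 (pig 1) and 322 (pig 2) in shallow, and 136 and 105 in deep; below, pig 1 is likewise given before pig 2. The groups did not overlap, and the shallow array of pig 1 was far above the rest. The mean was 527 ± 290 (SD, n = 2) in shallow and 121 ± 22.1 in deep, and the ratio of geometric means gave a 4.06-fold lower signal. The difference was -2.02 ± 0.33 (SE; limma, unadjusted p = 0.000278, adjusted p = 0.0616), with -2.42 in pig 1 and -1.61 in pig 2. Summed proliferation genes had the same order of shallow over deep, and their part in the ACOT7 difference was not tested. Leaving out 1 shallow array gave -1.43 (pig 1 out) or -2.61 (pig 2 out), and the actin ratio as covariate gave -1.21.

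Whether ACOT7 counts as called depended on the setting. It passed with shallow arrays paired to the deep array of the other pig (limma, adjusted p = 0.0329), with the stricter dim filter (0.0187), with quantile normalization (0.0474) and with probesets averaged per gene (0.0488). Without the shallow culture of pig 2 the difference was -2.61, from a fit with a lone shallow array. ACOT7 was farther from the threshold without the pig as block (adjusted p = 0.203), without the trend (0.15) and without the dim filter (0.261). With a deep culture left out the difference was -2.21 (pig 1 out) or -1.83 (pig 2 out), from fits with a lone deep array. In the limma fit with the covariate the adjusted p was 1.

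None of the other 4 thioesterases had an unadjusted p under 0.05. ACOT9, a mitochondrial enzyme, read 987 and 1184 in shallow and 894 and 883 in deep (-0.28 ± 0.27). ACOT13 read 278 and 313 against 212 and 267 (-0.31 ± 0.29), but its second probeset past the filter differed by 0.45. Both genes had deep arrays below shallow arrays. ACOT8, which acts in peroxisomes, overlapped between the groups, at 53.1 and 80.4 against 41.1 and 66.2. ACOT6 had opposite signs in the pigs, -0.37 and 0.47, while its second probeset past the filter differed by 0.52, at 0.25 and 0.78. The median of the 5 genes was -0.31, and ranged from -0.48 (deep array of pig 2 out) to -0.14 (deep array of pig 1 out) with 1 array left out. It was -0.15 with the shallow array of pig 2 out and -0.73 with the covariate.

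**Figure D2:**
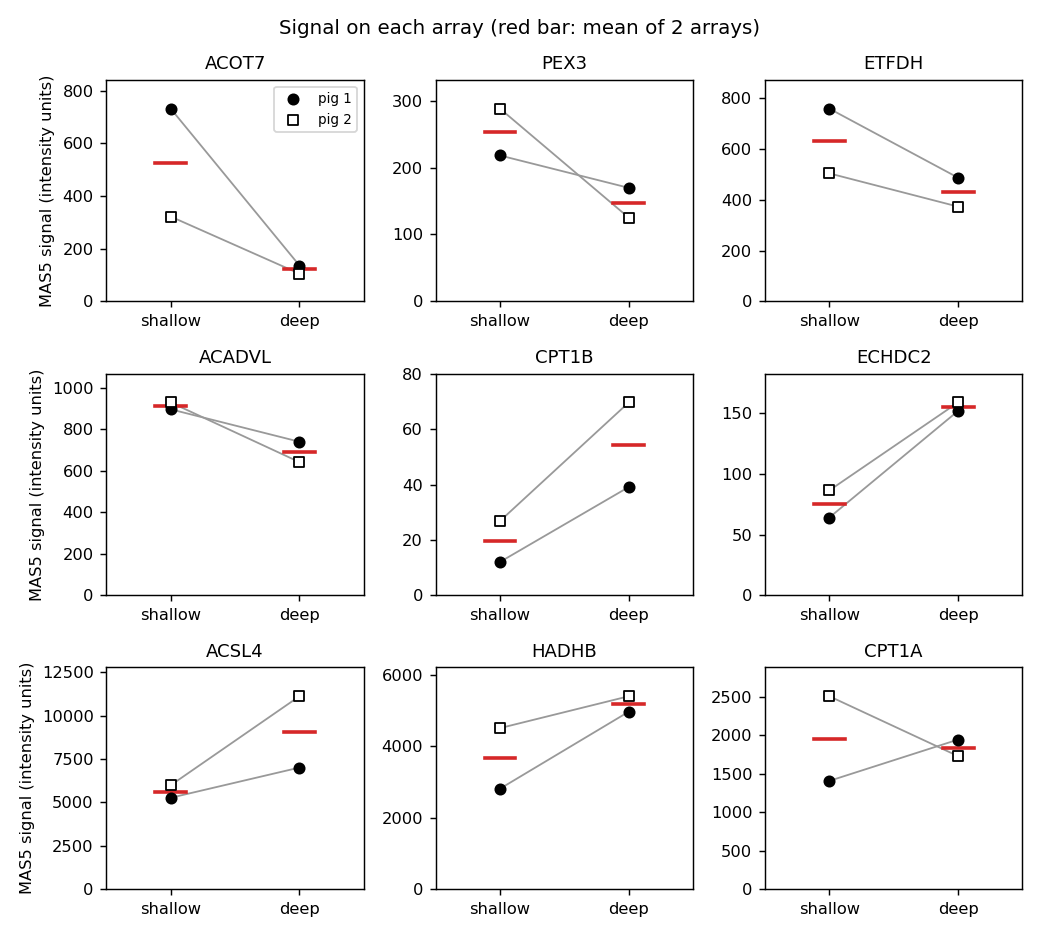
MAS5 signal in intensity units on each array for 9 genes, with pig 1 as filled circles, pig 2 as open squares, lines joining the arrays of a pig and red bars for the mean of 2 arrays. ACOT7 reads 732 and 322 in shallow against 136 and 105 in deep, ECHDC2 reads 64.0 and 86.4 against 152 and 159, and the lines of CPT1A cross.

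Acyl-CoA synthetases start the pathway, and their 5 members showed no shared direction. ACSL4, which prefers arachidonic and other polyunsaturated fatty acids, read 5263 and 5987 in shallow and 7009 and 11129 in deep. The groups did not overlap, and the deep array of pig 2 was the highest. Its difference was 0.65 ± 0.30 (limma, unadjusted p = 0.0605, adjusted p = 0.387), with a 95% interval of -0.04 to 1.34. Leaving out the deep culture of pig 2 gave 0.32, quantile normalization 0.14 and the actin ratio as covariate -0.11. At the top of the scale the arrays themselves differed, with a 99th percentile of 4732 and 5142 in shallow and 5619 and 6886 in deep, and ACSL4 lies above it on each array.

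ACSL1, ACSL3 and ACSL5 read lower on the deep array in pig 1 and slightly higher in pig 2. These are the brightest probesets, and ACSL5 had 3 past the filter. Its brightest read 893 and 492 in shallow and 662 and 527 in deep, with the highest signal on the shallow array of pig 1, as for the epithelial markers. The 3 probesets differed by -0.17, -0.39 and -0.50, none with an unadjusted p under 0.05, and the dimmer ones read lower on the deep array in both pigs. ACSL6 read 12.3, 10.8, 20.9 and 27.4, below the absent controls on each array, so no level was measured.

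At the carnitine step, CPT1A is the form found in liver and in most cell types. CPT1A read 1407 and 2509.8 in shallow against 1945 and 1729.6 in deep, so the deep values lay between the shallow ones. The pigs had opposite signs, 0.47 and -0.54, and the difference was -0.03 ± 0.32 (limma, adjusted p = 0.977). Its 95% interval of -0.77 to 0.70 lies inside a 2-fold change either way.

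CPT1B, the muscle form, had the largest positive difference among the tested members at a dim signal. It read 12 and 26.8 in shallow and 39.1 and 69.7 in deep. Shallow and deep did not overlap, and the value on the shallow array of pig 1 was below that array's highest absent control of 14.8. The difference was 1.54 ± 0.47 (limma, unadjusted p = 0.0115, adjusted p = 0.209). The summed signal of 4 smooth muscle and pericyte markers was 637 and 1125 in shallow and 4675 and 3342 in deep, most of it from ACTG2, a smooth muscle actin (492 and 717 against 4269 and 2914, 2.57, adjusted p = 0.0351). DES read 15.6 and 9.67 against 25.6 and 55.9, and the part of these markers in the CPT1B difference was not tested. Leaving out 1 shallow array gave 0.96 (pig 1 out) or 2.13 (pig 2 out), and the actin ratio as covariate gave 0.26. CPT1C, the form known from brain, read 34.7 and 49.0 against 62.7 and 63.1 (0.61 ± 0.42, adjusted p = 0.566). CPT2, which releases the acyl group inside the mitochondrion, was under the dim filter at 20.1 and 21.5 against 5.16 and 29.1, and both deep values lay below the absent controls.

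Acyl-CoA dehydrogenases, which take the first electrons from the chain, had a median of -0.06 over 9 genes (-0.22 to 0.04 with 1 array left out, -0.17 with the covariate) and 0 with an unadjusted p under 0.05. ACADM, the medium-chain enzyme, read 1691 and 2144 in shallow and 1945 and 1554 in deep, with opposite signs in the pigs (-0.13 ± 0.29). ACADVL, the very long-chain enzyme, read 897 and 930.2 against 740.4 and 642. Its deep arrays were below its shallow arrays, by -0.41 ± 0.27 (limma, adjusted p = 0.551), while a second ACADVL probeset past the filter differed by 0.12. ACAD9, also an assembly factor of respiratory complex I, was lower on both deep arrays at 175 and 176 against 237 and 213 (-0.35 ± 0.30). ACADL, the long-chain enzyme, read 328 and 318 in shallow and 455 and 381 in deep (0.37 ± 0.28).

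Of the remaining dehydrogenases, ACAD8, ACADS and ACADSB differed by -0.10, -0.06 and -0.05. ACAD11 overlapped at 108 and 164 against 155 and 192, with a difference of 0.37 ± 0.32. ACAD10 was below the absent controls on each array, with signals of 0.936, 9.59, 1.65 and 23.4.

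Electron transfer flavoproteins pass these electrons to the respiratory chain. ETFA read 1689 and 1647 in shallow and 1534 and 1431 in deep, a small difference of -0.17 ± 0.26 with no overlap. ETFB read 658 and 831 against 760.4 and 973 and overlapped (0.22 ± 0.26). ETFDH, the membrane enzyme that hands the electrons to ubiquinone, read 759 and 504 against 487 and 373. Its groups did not overlap, with the shallow array of pig 1 highest, and the difference was -0.54 ± 0.27 (limma, unadjusted p = 0.0841, adjusted p = 0.439). A second ETFDH probeset differed by -0.47. Leaving out 1 shallow array gave -0.24 (pig 1 out) or -0.83 (pig 2 out), and the actin ratio as covariate gave 0.07.

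Hydratases and isomerases had positive differences for 5 of 6 members, where 3303 of 6765 named genes did, and a median of 0.24. With the shallow culture of pig 1 left out the median was 0.13, and 0.11 with the actin ratio as covariate. ECHDC2, an enoyl-CoA hydratase domain protein, read 64.0 and 86.4 in shallow and 152 and 159 in deep. The groups were well apart, and the pigs were alike, at 1.24 and 0.88. It was 2.09-fold higher in deep, a difference of 1.06 ± 0.35 (limma, unadjusted p = 0.0153, adjusted p = 0.231). With 1 array left out the difference lay between 0.85 and 1.28, and with the actin ratio as covariate it was 0.84. ECHDC2 did not pass an adjusted p of 0.05 in any limma fit that used all arrays.

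ECI1, a mitochondrial isomerase needed for unsaturated chains, read 269 and 432 against 511 and 519.7 (0.60 ± 0.30, limma, adjusted p = 0.432). Most of this came from pig 1, at 0.93 against 0.27 in pig 2. ECHS1, the main short-chain hydratase, read 2187 and 2458 against 2693 and 2650.2 (0.20 ± 0.27), and ECH1 86.2 and 105 against 111 and 121. ECI2 overlapped, with a difference of 0.04 and opposite signs in the pigs. ECHDC1, which removes malformed ethylmalonyl-CoA, read lower on both deep arrays, at 263 and 213 against 329 and 292 (-0.39 ± 0.29).

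The trifunctional protein joins the last steps for long chains, and its subunits HADHA and HADHB are next to each other in the RefSeq gene table of the Sscrofa11.1 assembly. HADHB read 2810 and 4509 in shallow and 4969.6 and 5403 in deep, and HADHA 1125 and 1377 against 1398 and 1405. On both, the shallow array of pig 1 was lowest and the other 3 lay closer together. HADHB differed by 0.54 ± 0.29 (limma, adjusted p = 0.463) and HADHA by 0.17 ± 0.27. The other HADHB probesets differed by 0.79 (unadjusted p = 0.0238, adjusted p = 0.270) and 0.45. With that shallow array left out HADHB differed by 0.20 and HADHA by 0.03. HADH, the short-chain enzyme, read 1604 and 1617 against 1384 and 1458 (-0.18 ± 0.26).

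Of the thiolases, ACAA2, the mitochondrial enzyme, differed more between the pigs than between the depths. It read 96.5 and 223 in shallow and 121 and 217 in deep, so pig 2 exceeded pig 1 by 1.02 on the log2 scale while deep exceeded shallow by 0.15. ACAA1, the peroxisomal enzyme, read 414 and 335 against 390.4 and 419. Among all members, the depth difference was larger than the pig difference for 31 of 46 (67.4%, against 64.5% of named genes).

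**Figure D3:**
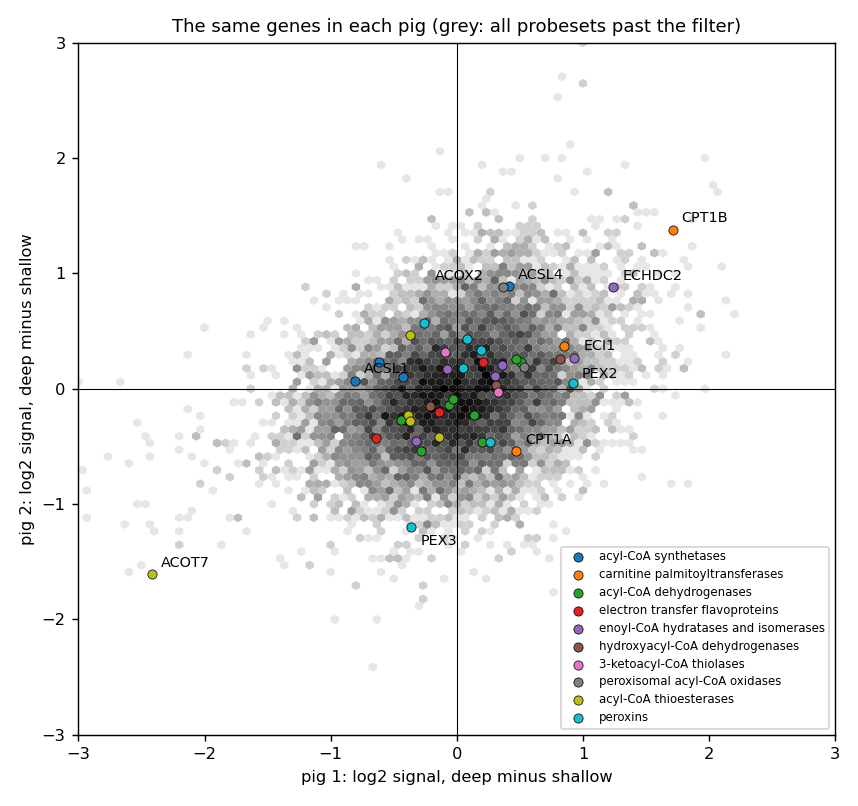
Log2 signal, deep minus shallow, in pig 1 (x axis) and pig 2 (y axis) for the 43 members past the filter, coloured by role, over the density of all 14399 probesets past it in grey; probesets beyond 3 on either axis are not drawn. ACOT7 lies far out at lower left, CPT1B and ECHDC2 at upper right, and most members within the dense centre.

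Peroxisomal acyl-CoA oxidases read higher on both deep arrays for both measured genes. ACOX2, which acts on branched chains and bile acid intermediates, read 164 and 126 in shallow and 212 and 231 in deep (0.62 ± 0.32, limma, unadjusted p = 0.0878, adjusted p = 0.443). With 1 array left out it differed by 0.43 to 0.82, and by 0.63 with the actin ratio as covariate. ACOX3, the other branched-chain oxidase, read 168 and 171 against 242 and 196 (0.36 ± 0.31).

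Peroxins had a median of 0.15 over 7 genes, with 5 above 0 and 2 below, and none had an adjusted p under 0.05. The median was 0.04 with the deep array of pig 2 out, 0.32 with that of pig 1 out, 0.25 with quantile normalization and 0.03 with the covariate. PEX3, the membrane receptor on which PEX19 delivers newly made peroxisomal membrane proteins, was the lowest. It read 218 and 288 in shallow and 169.6 and 125 in deep. Both deep values were below both shallow values, more so in pig 2 (-1.20) than in pig 1 (-0.36). The difference was -0.78 ± 0.34 (limma, adjusted p = 0.360), and leaving out 1 deep array gave -0.56 (pig 2 out) or -1.0 (pig 1 out). PEX19 read 145 and 157 against 154 and 211 (0.25 ± 0.32), so these partners had opposite signs, and the difference between them was not tested. PEX16, which acts with them in the membrane, had opposite signs in the pigs, at -0.26 and 0.57.

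Among the import factors, PEX14 and PEX13 form the docking complex. PEX14 read 55.1 and 46.1 against 57.1 and 52.4 (0.12 ± 0.40). PEX13 read 311 and 425 against 373 and 309 (-0.10 ± 0.31), and its second probeset differed by 0.37. PEX7, the receptor for enzymes with the N-terminal targeting signal, read 139.7 and 137 against 159 and 173 (0.26 ± 0.32). PEX2, of the ubiquitin ligase that recycles the receptors, read 79.1 and 126 against 150.1 and 131 (0.49 ± 0.37), with 0.92 in pig 1 and 0.05 in pig 2.

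A missed threshold does not show that levels were alike, and the intervals say how far each gene could differ. Of the 43 tested members, 21 had a 95% interval inside a 2-fold change in either direction (48.8%, against 34.7% of probesets past the filter). They included ACADM (-0.80 to 0.54), ETFA (-0.78 to 0.44), ETFB (-0.39 to 0.83), HADHA (-0.45 to 0.79), ACAA1 (-0.54 to 0.78) and PEX19 (-0.48 to 0.99). The interval reached a 2-fold higher signal for 13 members and a 2-fold lower one for 9. Several probesets past the filter measured 9 of the genes, and their signs were the same for 5: ACAD8, ACOT6, ACSL5, ETFDH and HADHB.

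**Figure D4:**
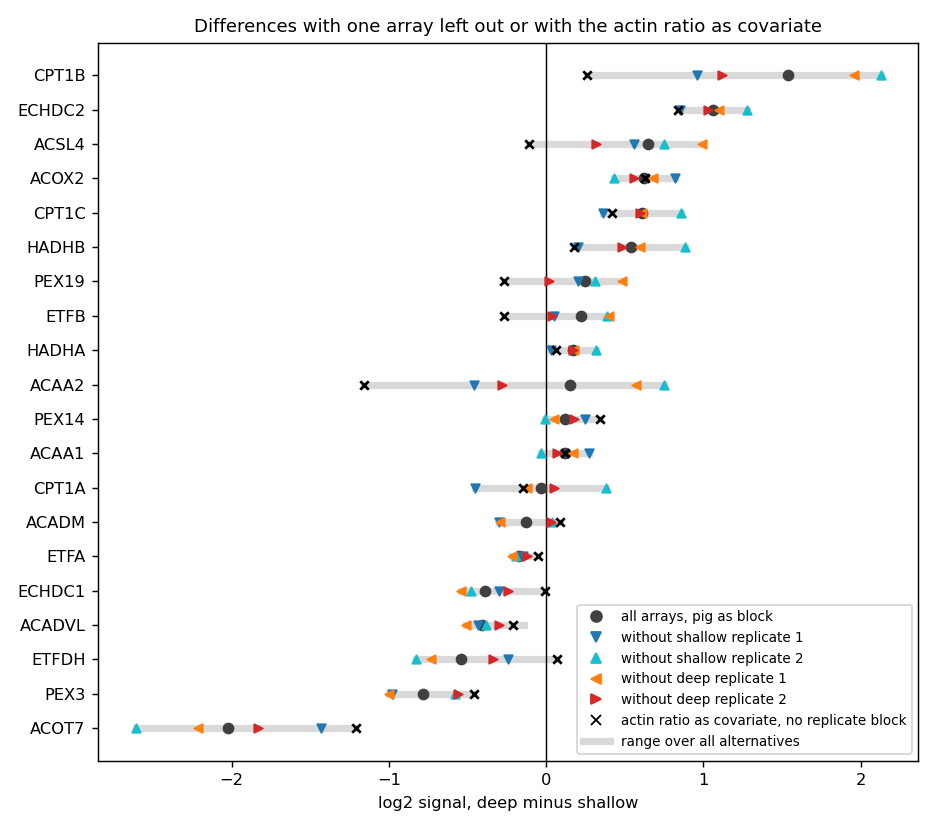
Log2 signal, deep minus shallow, for 20 named members with all arrays (grey circles), with 1 array left out (triangles) and with the actin ratio as covariate (crosses); pale bars span all alternatives. ACOT7 stays between -2.61 and -1.21 and ECHDC2 between 0.84 and 1.28, while ACSL4 and ETFDH cross 0 with the covariate.

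Other genes of the pathway were read from a list of 86 symbols, of which 56 had a named probeset and 46 passed the filter. With limma 0 passed the threshold, and 2 higher and 2 lower had an unadjusted p under 0.05 (8.7% of the 46, against 13.9% of all probesets tested). The median over the 56 was -0.04. Peroxisomal catalase, CAT, which breaks down the hydrogen peroxide made by the oxidases, read 899 and 1161 in shallow and 2029.6 and 3808 in deep (limma, adjusted p = 0.0818). It differed by 1.44 ± 0.28 with all arrays, and by 0.36 with the actin ratio as covariate. CAT passed with the filter at the 60th percentile (limma, adjusted p = 0.0304). CRAT, carnitine acetyltransferase, read 161 and 255 against 260.4 and 617 (0.98 ± 0.30, adjusted p = 0.215). Its size rested on the deep array of pig 2, at 0.36 without it, and it was -0.56 with the covariate.

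On the lower side, the fission protein DNM1L, which divides mitochondria and peroxisomes, read 1004 and 691 in shallow and 548 and 438 in deep (-0.77 ± 0.27, limma, adjusted p = 0.259). It differed by -0.24 with the covariate. FABP5, a fatty acid binding protein abundant in epidermis, read 380.2 and 91.9 against 77.3 and 36.2 (-1.82 ± 0.38, adjusted p = 0.0967). It was -0.80 without the shallow array of pig 1, the array with the epithelial signal, and 0.04 with the covariate. The heart form FABP3 read 795 and 213 against 111 and 248 (-1.31 ± 0.62), with -0.37 when that array was left out. PDK4, the kinase that turns off pyruvate dehydrogenase when fat is burned, read 277 and 842 against 339 and 117. The pigs had opposite signs (0.29 and -2.85), and the difference was -1.28 ± 0.63 (limma, adjusted p = 0.423). PDK4 did not pass an adjusted p of 0.05 in any limma fit that used all arrays. With a lone shallow array it differed by -2.08 (pig 1 out) or -0.48 (pig 2 out). With a lone deep array the difference was -2.05 (pig 1 out) or -0.51 (pig 2 out), and with the covariate -0.22.

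Without the shallow array of pig 2, a fit with a lone shallow array, CAT differed by 1.63, CRAT by 1.31 and DNM1L by -1.04. In that fit FABP3 differed by -2.26 and FABP5 by -2.85. Regulators were partly out of reach. Of 13 with a named probeset, 8 passed the filter, 0 of them with an unadjusted p under 0.05 (limma). Their differences were positive for 6 of the 13 and negative for 7. PPARA, the nuclear receptor that drives these genes in liver, read 7.72, 6.23, 7.67 and 20.6, below the absent controls on each array. PPARD, its widely expressed relative, read 83.1 and 109 in shallow and 100 and 104 in deep. PPARGC1A, under the dim filter, read 23.3 and 78.5 in shallow and 18.1 and 2.44 in deep. Both deep values lay below the absent controls, and the difference was -0.37 in pig 1 and -5.01 in pig 2.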

How the data were processed

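Gene expression was measured on 4 arrays. Each deposited value is a linear signal intensity, for which the submitters' processing notes name MAS5 and GCOS 1.0; the authors' scaling target is not given in the sources used here. With 2% trimmed at either end, every array averaged 250.1. Arrays have no read depth, and their number sets the precision.

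After removal of 124 control probesets, values were floored at 1 and put on the log2 scale. Probesets at or above the 40th percentile of mean log2 signal (a signal of 27.1) were kept, 14399 of 23999. In the annotation 10069 probesets had 1 symbol, 198 had several and 13732 had none; all 46 member gene identifiers were found in RefSeq with the same symbol. The comparison was fitted in limma 3.58.1 (R 4.3.3; lmFit, then eBayes with its trend option) blocked on the pig, with Benjamini-Hochberg adjustment over all 14399; the script was tested on simulated data. The block leaves 1 residual degree of freedom, to which moderation added 6.88.

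The pairing reads the partner numbers in the titles as the order of listing, and the deviations of same-pig arrays had a correlation of -0.01 across probesets, so it comes from the design alone. Named members were all with an unadjusted p under 0.05, the 5 largest differences each way, those at least 1.5-fold in the same direction in both pigs, and 15 core enzymes and peroxins; of the other pathway genes, those with an unadjusted p under 0.05 and the 4 largest differences past the filter. ECI1, PPARA, PPARD, PPARGC1A and the remaining members are named beside them. Members and lists were chosen with earlier results of these data known. Alternatives changed the block, pairing, filter, floor, scaling, trend, covariate, probeset choice and arrays used.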

Additional observations from a re-analysis of the deposited data

How the results depend on the processing

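With limma 49 probesets were called with the pig as block. Without the block 0 were (1885 at an unadjusted p under 0.05), and with the crossed pairing 202. The count was 0 without the dim filter (2246 at an unadjusted p under 0.05), 217 with a filter at the 60th percentile, 6 with signals under 16 set to 16, 93 with quantile normalization and 3 without the trend. It was 0 with the actin ratio as covariate (283 at an unadjusted p under 0.05), a fit with 1 residual degree of freedom in which ratio and depth overlap. With 1 array left out, fits that have no pig block and leave a lone array assumed to vary like the others, it ranged from 0 to 1597, the latter without the shallow array of pig 2.

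Fits that used all arrays called no member but ACOT7. It was called with the crossed pairing, the 60th percentile filter, quantile normalization and the mean of a gene's probesets. Calls of members and of other pathway genes are not counted for fits with a lone array in a group. Without the shallow array of pig 2, which leaves a lone shallow array, ACOT7 differed by -2.61, CPT1B by 2.13 and ECHDC2 by 1.28. Removing the pig block left the members called at 0 and gave 4 of 43 with an unadjusted p under 0.05, against 3 with the block. Over all probesets tested the share at that p was 13.1% without the block and 13.9% with it. With the covariate 0 members had an unadjusted p under 0.05, against 1.97% of all probesets tested. The members' median was 0.05 with median centring, 0.12 with quantile normalization and with averaged probesets, -0.08 with the covariate and 0.00 to 0.18 with 1 array left out. Other pathway genes called were 1 with the 60th percentile filter and 0 to 5 with 1 array left out, and those with an unadjusted p under 0.05 were 0 with the covariate and 1 to 7. The cause of these changes was not tested.

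Of 29 named genes, 16 kept their direction in every alternative run. With the covariate the sign turned for ACSL4 (-0.11), ETFDH (0.07), ACAD10 (-4.16), ACADM (0.09), ACAA2 (-1.16), ETFB (-0.27), PEX19 (-0.27), FABP5 (0.04) and CRAT (-0.56), and with the floor of 16 for CPT2 (0.05). Leaving out 1 array turned it for ACAD10 (-0.91 to 2.92), CPT2 (-2.01 to 0.48), ACAA2 (-0.46 to 0.75), CPT1A (-0.45 to 0.38), ACADM (-0.30 to 0.04), ACAA1 (-0.03 to 0.27) and PEX14 (-0.01 to 0.25). Signals near the absent controls limit ACSL6, ACAD10, CPT1B and CPT2.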
